A study of Mus musculus with 12 samples.

Results

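Mouse embryonic fibroblasts kept for 240 h in WM-2474 were compared with fibroblasts kept in it for 96 h, across all genes. The comparison used 6 of the 12 libraries of the study, 3 cultures at each time, chosen by the compound and time in the sample labels. The cells came from wild-type C57BL/6 embryos at embryonic day 13.5 and were grown with serum in 3% oxygen. Every culture received a compound at 10 µM: WM-2474, which the labels give as the inactive control, or WM-8014, an inhibitor of the MYST family of lysine acetyltransferases, which acetylate histone tails. Cultures numbered 5, 6 and 7 stand in each of the 4 groups of compound and time. No untreated culture is among the 12 samples, so time in culture, any passage between the times and the compound itself cannot be told apart here. The question the comparison addresses is how far the control cells themselves change over the course of the experiment.

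Embryonic fibroblasts are primary cells that divide for a limited number of passages. In serum they slow down as p19ARF and inhibitors of cyclin-dependent kinases such as p16 and p21 build up. Many take on myofibroblast features, with actin stress fibres and a collagen-rich matrix. Cholesterol and fatty acid synthesis in such cells is set by the SREBP transcription factors, and proliferation genes are held down outside the cycle by the DREAM complex and the retinoblastoma proteins.

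The fibroblast label was checked against 16 marker genes, all of which were detected. Their summed level was 28500 to 32000 CPM (read counts scaled to a common library total) in the 3 libraries at 96 h and 44300 to 45600 CPM at 240 h. The collagen genes Col1a1 and Col1a2 made most of this sum. In the test described below, 8 of the 16 rose (50%) and 2 fell (12.5%). Pdgfra was among those that fell, from 299, 302 and 298 CPM at 96 h to 220, 193 and 203 CPM at 240 h. The labels give the embryos as female, yet Xist, the X-inactivation transcript, had 0 to 4 reads in all 12 libraries, and each of them held reads of Uty, Kdm5d, Eif2s3y and Ddx3y from the Y chromosome. Library totals were 10147466, 13098453 and 45903190 reads at 96 h (cultures 5, 6 and 7) and 19252762, 23521441 and 21071010 reads at 240 h, and 3 reads correspond to 0.0654 to 0.296 CPM. The 20 most abundant genes held 8.59 to 9.14% of reads at 96 h and 11.6 to 11.9% at 240 h.

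At 96 h under WM-2474, cultures 6 and 7 stood apart from the other 10 libraries of the study for 4 genes. Misp3, a gene related to the actin-binding protein Misp, was at 89, 0.724 and 0.943 CPM at 96 h and at 214, 200 and 204 CPM at 240 h. Ntn3, a netrin, was at 64.4, 11 and 13 CPM at 96 h and at 146, 140 and 143 CPM at 240 h. Stag3, the meiotic cohesin subunit, was at 22.9, 1.81 and 2.5 CPM at 96 h and at 30.3, 26.1 and 26.1 CPM at 240 h. Lrrn2, a leucine-rich repeat membrane protein, was at 26.5, 9.77 and 12.7 CPM at 96 h and at 33.7, 30.9 and 28.6 CPM at 240 h. Their log2 fold changes of 3.31, 2.55, 2.14 and 1.05 passed the test (edgeR adjusted p = 0.0487, 0.00859, 0.0339 and 0.0183 for Misp3, Ntn3, Stag3 and Lrrn2), but the value of Misp3 ran from 2.29 to 7.84 and that of Stag3 from 1.27 to 3.56 when single libraries were left out. The calls of Misp3, Stag3 and Lrrn2 were lost without a single library. Leaving out 96 h culture 7 gave adjusted p = 0.108 for Misp3, 0.172 for Stag3 and 0.114 for Lrrn2, and leaving out 96 h culture 6 gave 0.133, 0.0941 and 0.0529. Ntn3 had a log2 fold change of 3.53 without 96 h culture 5. It missed the threshold when only the 6 WM-2474 libraries were fitted (adjusted p = 0.0551, or 0.138 with culture number as a block), without culture 6 (0.152) or 7 (0.118) of all 4 groups, and with culture 5 as the only 96 h library (1.15, 0.147). Leaving out any 1 of the 240 h libraries also ended the calls of Misp3 (adjusted p = 0.0817 to 0.0932) and Stag3 (0.0688 to 0.0694). Counts of called genes are therefore also given with culture 5 as the only 96 h library of WM-2474, a comparison in which that library is assumed to vary like the other groups. With 1 library, the smallest of the study, it has less power, so a lost call need not mean a smaller change. The log2 fold change of Cdkn1c was -1.44 there against -1.50 in the full fit, and that of Sox6 -0.68 against -1.61.

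Of 14136 genes tested, 2800 (19.8%) were higher and 2697 (19.1%) were lower at 240 h at an adjusted p under 0.05 in edgeR's quasi-likelihood test, 5497 or 38.9% in all. Most of these differences were small: 250 of the genes were higher and 336 lower by at least 2-fold. The 3 libraries of each time did not overlap for 6989 genes (49.4%). Among the 5497 called genes, the cultures 5, 6 and 7 each changed in the called direction for 5368. The calls were made from the same libraries, so this agreement largely follows from them. The median log2 fold change of all genes tested was -0.014. With culture 5 as the only 96 h library, 1454 genes were higher and 1256 lower. The gene lists described next are read against these shares, and the values of each list stand in the plot of list members.

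**Figure D1:**
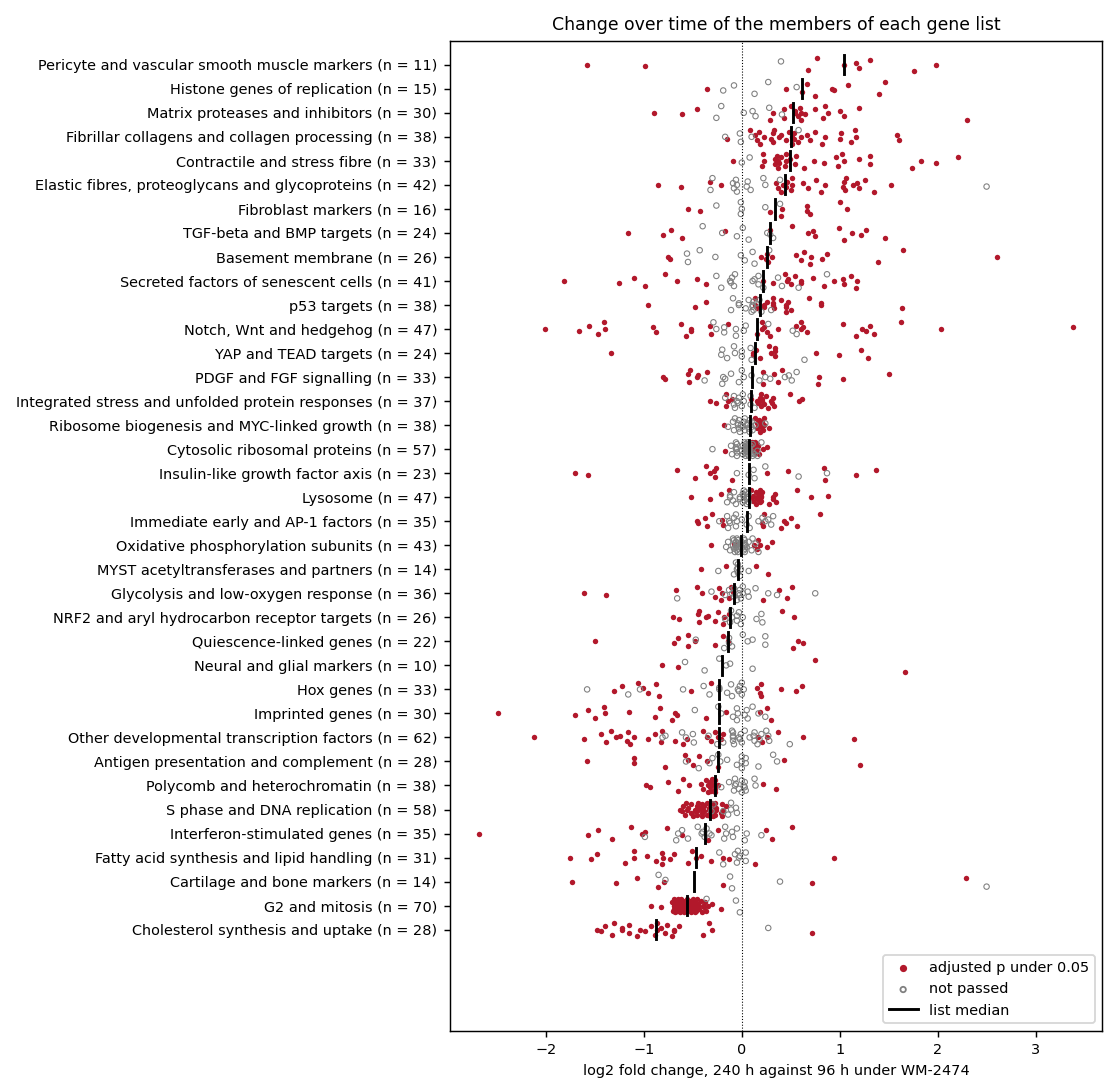
Log2 fold change from 96 h to 240 h under WM-2474 (x axis) for each member of the gene lists with at least 10 members tested (y axis, ordered by median, with the number tested). Each point is 1 gene, filled where the adjusted p was under 0.05, and the black bar is the list median, lowest for cholesterol synthesis (-0.88) and highest for pericyte and vascular smooth muscle markers (1.04).

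Genes of cell division fell together. In the list of G2 and mitosis, 67 of 70 members fell and 0 rose. Their log2 fold changes ran from -0.93 to -0.02 around a median of -0.56. In the list of S phase and replication, 50 of 58 fell and 0 rose (median -0.32). With culture 5 as the only 96 h library, 62 of the mitotic and 29 of the S phase genes fell. The fall was shallow: no member of either list fell by as much as 2-fold. In bulk RNA a smaller share of dividing cells and less RNA per dividing cell cannot be told apart. Mki67, the proliferation marker coating mitotic chromosomes, was at 267, 243 and 265 CPM at 96 h and at 165, 176 and 161 CPM at 240 h. All 96 h libraries lay above all 240 h libraries, and the difference was -0.63 ± 0.0523 on the log2 scale (± SE; adjusted p = 3.75e-08). Cyclin B1 (Ccnb1), which activates the mitotic kinase, went from 34 ± 0.7 to 22.7 ± 2.8 CPM (SD, n = 3), and Cdk1, that kinase, from 78.2 ± 3.9 to 53.2 ± 3.4 CPM. Pimreg, a regulator of the metaphase-to-anaphase step, had the lowest value of its list at -0.93, with 38.4, 38.9 and 41.5 CPM at 96 h and 18.8, 21.3 and 22.7 CPM at 240 h. The 3 mitotic genes that did not pass were Cenpk, a centromere protein gene (-0.36, adjusted p = 0.0834), Pttg1, which encodes securin (-0.06, 0.633), and the checkpoint gene Bub3 (-0.02, 0.78). Without 96 h culture 6, Cenpk passed (-0.47, adjusted p = 0.0337).

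Replication genes moved less. The DNA ligase gene Lig1 was at 65.9, 61.2 and 61.7 CPM at 96 h and at 39.3, 42 and 40.5 CPM at 240 h, the lowest log2 fold change of the S phase list at -0.63 ± 0.0582. Mcm5, a subunit of the replicative helicase, fell by 0.40 ± 0.0701 (adjusted p = 0.000185) and Pcna, the sliding clamp, by 0.36 ± 0.0576 on the log2 scale (3.98e-05). Cell-cycle messages were still read in every library at 240 h, when Pcna was at 36.5 ± 2.5 CPM and Mki67 at 167 ± 7.5 CPM. Of 27 replication-dependent histone genes, 15 had enough reads, and of these 9 rose and 1 fell, with a median of 0.61. H3c2 rose from 0.65, 0.941 and 0.451 CPM to 1.82, 1.65 and 1.44 CPM, and H2ac4 from 0.371, 0.651 and 0.738 CPM to 1.5, 1.91 and 1.78 CPM. The log2 fold change of H2ac4 was 1.40, or 2.21 with culture 5 as the only 96 h library, where 5 histone genes rose. Most such messages end in a stem-loop and not in a poly(A) tail, and the libraries were made from poly(A) RNA. H2ax, a histone variant gene that also makes a polyadenylated message, fell by 0.36 ± 0.05 on the log2 scale.

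Promoters of 2 mitotic genes are printed because their list moved nearly as one. The sequences are the 250 bases before the annotated start in RefSeq (build GRCm38.p6), 5′ to 3′ along the gene's strand. Capitals mark the cell-cycle homology region, searched as TTTGAA, and the CCAAT box, searched as CCAAT, each on both strands, so that ATTGG is a CCAAT box on the other strand.
Mki67 (chr7:135716380-135716629, minus strand): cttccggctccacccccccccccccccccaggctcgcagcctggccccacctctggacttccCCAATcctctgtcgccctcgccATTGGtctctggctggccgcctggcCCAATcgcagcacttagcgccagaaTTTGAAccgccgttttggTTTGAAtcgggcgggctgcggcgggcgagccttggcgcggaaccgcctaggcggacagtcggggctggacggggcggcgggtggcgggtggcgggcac
Cdk1 (chr10:69352913-69353162, minus strand): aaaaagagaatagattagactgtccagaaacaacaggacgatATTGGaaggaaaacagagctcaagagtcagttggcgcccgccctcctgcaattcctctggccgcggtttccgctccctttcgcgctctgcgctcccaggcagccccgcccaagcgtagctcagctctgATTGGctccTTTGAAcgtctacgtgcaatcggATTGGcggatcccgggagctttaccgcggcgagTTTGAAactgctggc
TTTGAA stood in 22 of 59 promoters of the G2 and mitosis list (37.3%) and in 10.5% of the promoters of all 10681 tested genes with a sequence. CCAAT stood in 41 of 59 (69.5%) against 36.9%, and both in 18 of 59 (30.5%) against 4.18%. In the S phase list, an E2F site searched as TTTGGCGC or TTTCGCGC stood in 6 of 47 promoters (12.8%) against 1.3%, and TTTGAA in 6 of 47 (12.8%). These matches are descriptions of the letters and not of binding.

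All 7 genes for inhibitors of cyclin-dependent kinases passed the test, 3 higher and 4 lower. Of these, 3 were higher and 1 lower with culture 5 as the only 96 h library. Cdkn2a, which encodes p16 and p19ARF, was at 82.3, 97.1 and 84 CPM at 96 h and at 159, 156 and 166 CPM at 240 h (log2 fold change 0.87 ± 0.0561, adjusted p = 1.92e-09). Gene-level counts do not separate its 2 products, of which p16 is the kinase inhibitor. Cdkn1a, which encodes p21, was at 383, 401 and 389 CPM at 96 h and at 684, 685 and 684 CPM at 240 h (0.81 ± 0.0379, adjusted p = 3.97e-13). The times did not overlap for either gene. Cdkn2b, which encodes p15, rose by 0.21 only, from 97.7 ± 5.2 to 113 ± 2.5 CPM. The inhibitors linked to quiescence and differentiation fell: Cdkn1c (p57), an imprinted gene, was at 63.7, 57.2 and 75.3 CPM at 96 h and at 34.7, 16.5 and 20 CPM at 240 h, a log2 fold change of -1.50 ± 0.262 (adjusted p = 0.00197). Cdkn1c missed the threshold without culture 7 of all 4 groups (adjusted p = 0.0978), with culture 5 as the only 96 h library (0.0592) and with culture number as a block over the 6 libraries (0.0731). Cdkn1b (p27) went from 69.1 ± 7.3 to 44.5 ± 0.98 CPM (-0.65 ± 0.0629). Cdkn2d (p19INK4d) and Cdkn2c (p18) fell by 0.36 and 0.33 on the log2 scale, and Cdkn2c missed the threshold without 240 h culture 5 (adjusted p = 0.0502). Cdkn2d missed it with culture 5 as the only 96 h library (0.135).

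Among 38 targets of p53, 20 rose and 3 fell, with a median of 0.19. Perp, a membrane protein of the p53 death program, rose most, from 10, 11.1 and 8.48 CPM to 32.1, 28.2 and 28.6 CPM (1.64 ± 0.0971). The death receptor gene Fas rose by 0.81 ± 0.114 and the BH3-only gene Pmaip1 by 0.69 ± 0.0709. Mdm2, which encodes the ligase that degrades p53, rose by 0.26 ± 0.0415. The members that fell were the drug transporter gene Abcb1a (-0.96), the sestrin gene Sesn1 (-0.48) and Ckap2 (-0.37), which is also on the mitotic list. Trp53 itself was at 115, 112 and 114 CPM at 96 h and at 112, 119 and 118 CPM at 240 h (0.04 ± 0.0372, adjusted p = 0.466).

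**Figure D2:**
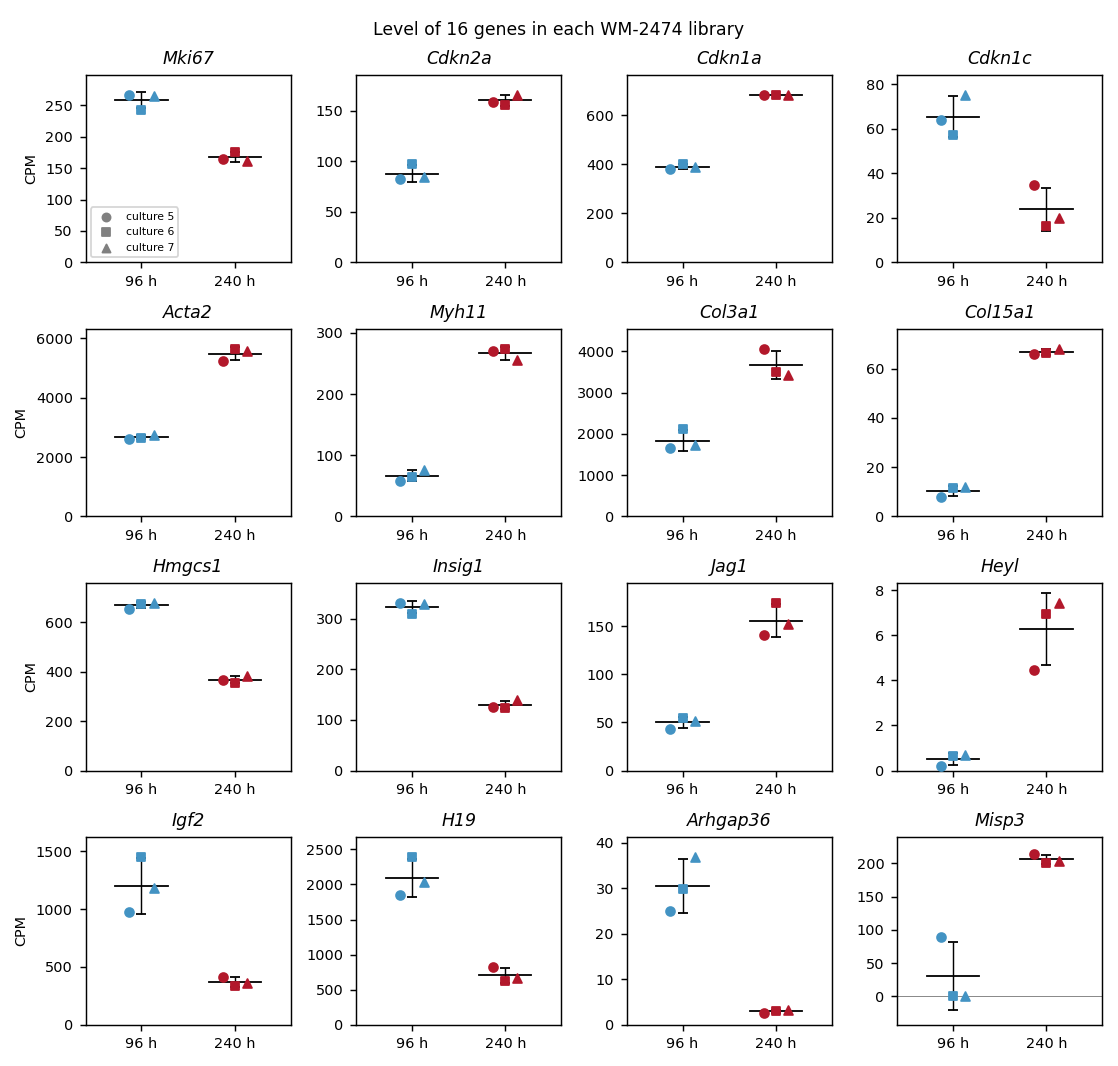
CPM (y axes, linear, TMM-adjusted library sizes) of 16 genes in the 3 WM-2474 libraries at 96 h (blue) and the 3 at 240 h (red), with the culture number given by the symbol. Lines are means and bars 1 SD. The times do not overlap for any of the 16 genes, which were picked from called genes, nor for 49.4% of all genes tested. Misp3 shows 96 h culture 5 at 89 CPM beside 0.724 and 0.943 CPM.

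Contractile genes rose as a group. Of 33 genes of stress fibres and smooth muscle, 30 rose and 1 fell, with a median of 0.49, and 9 rose by at least 2-fold. The number that rose was 28 with culture 5 as the only 96 h library. Acta2, the smooth muscle actin that marks myofibroblasts, was at 2620, 2660 and 2740 CPM at 96 h and at 5250, 5650 and 5570 CPM at 240 h. This was a log2 fold change of 1.04 ± 0.0433 (adjusted p = 6.54e-14), and Tagln, the actin-binding transgelin, rose by a like amount (0.96 ± 0.0441). Larger changes came in genes of mature smooth muscle. Myh11, its myosin heavy chain, was at 58.7, 63.7 and 76.1 CPM at 96 h and at 271, 274 and 255 CPM at 240 h (1.98 ± 0.121, adjusted p = 1.81e-06). Actg2, the enteric smooth muscle actin, rose from 133 ± 14 to 476 ± 30 CPM, Cnn1, the calponin, from 132 ± 9.8 to 327 ± 12 CPM, and Synpo2, an actin-bundling protein, from 11.6 ± 0.62 to 39.3 ± 4.8 CPM. Itga8, an integrin subunit of contractile mesenchyme, rose most (2.21 ± 0.167), from 34.5, 32.3 and 39.9 CPM to 191, 147 and 166 CPM. The member that fell was the general tropomyosin gene Tpm3 (-0.09, adjusted p = 0.0224), and it missed the threshold without 96 h culture 5 or 6 or 240 h culture 5 or 6 (adjusted p = 0.0523 to 0.131). Zyx (0.00, adjusted p = 0.979) and Tagln2 (0.08, 0.376) did not pass, though Tagln2 did without 240 h culture 5 (0.16, adjusted p = 0.00758).

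Markers of pericytes and vascular smooth muscle, summed, were at 3280 to 3460 CPM at 96 h and 6830 to 7360 CPM at 240 h, of which Acta2 made most. Of 11 tested, 8 rose and 2 fell. Mcam, the adhesion molecule CD146, rose from 92.3 ± 5.6 to 314 ± 31 CPM and Cspg4, the NG2 proteoglycan, from 258 ± 5.9 to 439 ± 28 CPM. The pericyte potassium channel genes went the other way: Kcnj8 was at 1.76, 1.3 and 1.45 CPM at 96 h and at 0.59, 0.445 and 0.446 CPM at 240 h, and Abcc9 fell by 0.99 on the log2 scale. Rgs5, which marks pericytes, did not pass the test (1.06 ± 0.12 and 1.43 ± 0.25 CPM, adjusted p = 0.181), and Higd1b had 0 reads. In promoters of the contractile list, the TEAD site searched as GGAATG stood in 10 of 30 (33.3%) against 10.7% of all promoters, and in 2 of 26 promoters of the fibrillar collagen list (7.69%).

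**Figure D3:**
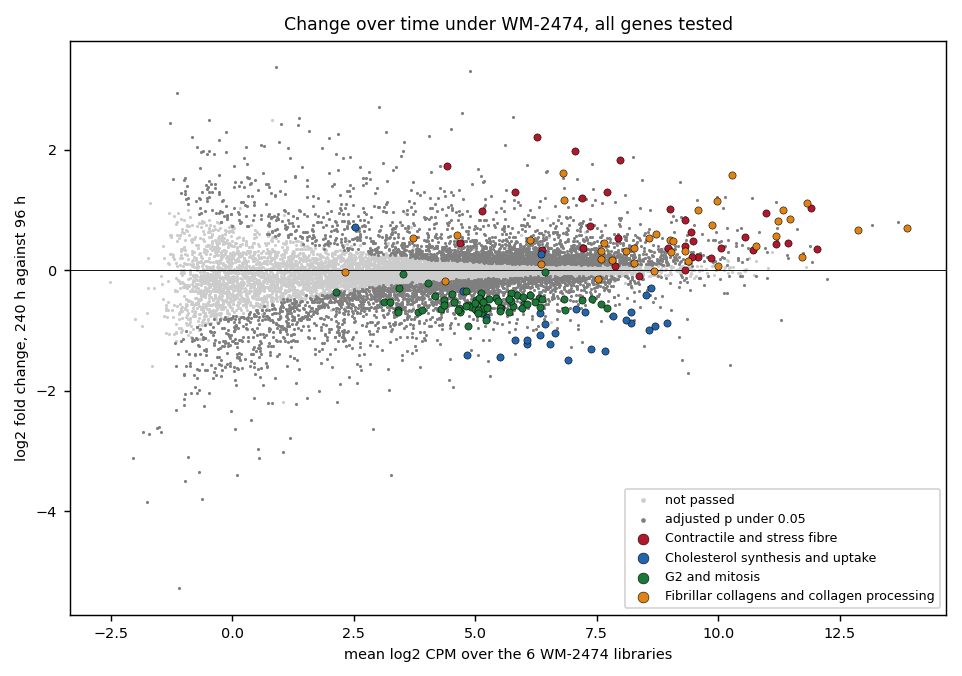
Log2 fold change from 96 h to 240 h (y axis) against the mean log2 CPM over the 6 WM-2474 libraries (x axis) for the 14136 genes tested, with 5497 called genes in dark grey and 4 lists in colour. Contractile and collagen genes lie mostly above 0, many at high abundance, while most mitotic and cholesterol genes lie below 0.

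Matrix genes rose across most classes. Of 38 genes of fibrillar collagens and their processing, 32 rose and 1 fell (median 0.50), and 28 rose with culture 5 as the only 96 h library. Of 42 genes of elastic fibres, proteoglycans and matrix glycoproteins, 24 rose and 4 fell (0.44), and of 26 basement membrane genes 15 rose and 2 fell (0.26). Col1a1, the main chain of type I collagen, was at 10700, 13200 and 11400 CPM at 96 h and at 18800, 19900 and 18800 CPM at 240 h (0.70 ± 0.0719, adjusted p = 5.54e-06). Col3a1 rose from 1830 ± 250 to 3670 ± 350 CPM and Col6a3, a microfibrillar collagen chain, from 718 ± 55 to 2150 ± 82 CPM. Col5a3, a chain of the minor fibrillar collagen V, had the highest value of its list at 1.61 ± 0.199. Loxl2, a collagen cross-linking oxidase, was at 659, 679 and 680 CPM at 96 h and at 1390, 1550 and 1560 CPM at 240 h. The member that fell was the lysyl hydroxylase gene Plod2 (-0.15, adjusted p = 0.0115), which missed the threshold without 96 h culture 6 (0.107) or 240 h culture 5 (0.091).

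Fn1, fibronectin, rose from 7030 ± 310 to 11900 ± 810 CPM, and Postn, the matricellular periostin, from 1570 ± 21 to 3440 ± 280 CPM. Aspn, a small leucine-rich proteoglycan, rose from 103, 111 and 111 CPM to 312, 239 and 279 CPM. The 4 members of that list that fell were Comp (-0.86), Ogn (-0.62), the fibulin gene Fbln1 (-0.32) and the matrilin gene Matn2 (-0.21). Comp missed the threshold without 96 h culture 6 (adjusted p = 0.0626) or 240 h culture 7 (0.101), and Ogn without 240 h culture 6 (0.0636) or 7 (0.0654). Col15a1, a basement membrane collagen of the multiplexin family, was at 8.08, 11.5 and 11.8 CPM at 96 h and at 65.7, 66.1 and 68 CPM at 240 h, a log2 fold change of 2.61 ± 0.0964 (adjusted p = 1e-12). Its relative Col18a1 went from 38.2, 62.1 and 52.2 CPM to 134, 192 and 159 CPM. The laminin gene Lama1 (-0.75) and Smoc2 (-0.73) fell, Lama1 not past the threshold without 96 h culture 7 (adjusted p = 0.106). Of 30 matrix proteases and inhibitors, 20 rose and 3 fell, with a median of 0.52. Timp3, a matrix-bound inhibitor of metalloproteinases, rose from 1090 ± 65 to 2510 ± 44 CPM and the collagen-degrading cathepsin Ctsk from 91.4 ± 4.2 to 167 ± 6 CPM. The membrane-type protease gene Mmp16 (-0.90) and the aggrecanases Adamts5 (-0.61) and Adamts1 (-0.46) fell.

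Cholesterol genes had the lowest median of the lists with at least 10 members tested. Of 28 genes of synthesis and uptake, 26 fell and 1 rose, with a median of -0.88, and 11 fell by at least 2-fold. The number that fell was 25 with culture 5 as the only 96 h library. The 2 times did not overlap for any of the 28, nor for 49.4% of all genes tested. Hmgcs1, the synthase that makes HMG-CoA, was at 655, 675 and 679 CPM at 96 h and at 367, 353 and 382 CPM at 240 h (-0.87 ± 0.0487, adjusted p = 1.14e-10). Acat2, the thiolase at the head of the pathway, fell most (-1.48 ± 0.0479), and Idi1, the isopentenyl diphosphate isomerase, went from 102 ± 2.8 to 43.7 ± 3.3 CPM. Insig1, which holds SREBP in the endoplasmic reticulum and is itself an SREBP target, was at 331, 310 and 329 CPM at 96 h and at 126, 123 and 139 CPM at 240 h. Srebf2, the gene for SREBP-2, fell less (-0.30 ± 0.0374). The sterol exporter gene Abcg1 rose (0.72 ± 0.17), and Abca1, the other exporter, had 71.8, 74.2 and 77.3 CPM at 96 h and 98.8, 81.5 and 91 CPM at 240 h (0.27, adjusted p = 0.117). Abca1 passed when only the 6 WM-2474 libraries were fitted (0.28, adjusted p = 0.00345). It also passed with culture number as a block over 12 libraries (0.0218), but not in most alternatives.

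The promoters of Hmgcs1 and Idi1 are printed as the early and middle steps of that list, from the same RefSeq source and build. Capitals mark the sterol regulatory element, searched as TCACNCCAC, and the CCAAT box, both strands.
Hmgcs1 (chr13:119690101-119690350, plus strand): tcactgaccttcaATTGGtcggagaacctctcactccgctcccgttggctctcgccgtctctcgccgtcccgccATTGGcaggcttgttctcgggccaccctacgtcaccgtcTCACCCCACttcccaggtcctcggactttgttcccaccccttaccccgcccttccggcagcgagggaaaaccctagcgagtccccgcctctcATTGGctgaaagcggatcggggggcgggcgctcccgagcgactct
Idi1 (chr13:8885356-8885605, plus strand): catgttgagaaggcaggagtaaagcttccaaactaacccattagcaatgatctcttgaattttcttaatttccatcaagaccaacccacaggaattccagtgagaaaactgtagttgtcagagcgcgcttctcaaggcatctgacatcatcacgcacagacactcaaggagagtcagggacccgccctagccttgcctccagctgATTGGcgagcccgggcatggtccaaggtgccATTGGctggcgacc
CCAAT stood in 16 of 19 promoters of the list (84.2%) against 36.9% of all. TCACNCCAC stood in 1 of 19, that of Hmgcs1 (5.26%), against 0.936% of all.

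Fatty acid genes followed the same direction. Of 31 genes of fatty acid synthesis and lipid handling, 20 fell and 2 rose (median -0.47). Scd1, the stearoyl-CoA desaturase, was at 1020, 1000 and 1030 CPM at 96 h and at 362, 350 and 378 CPM at 240 h (-1.48 ± 0.0474, adjusted p = 8.86e-15). Fasn, the fatty acid synthase, fell from 866 ± 30 to 496 ± 32 CPM, and Acss2, which makes acetyl-CoA from acetate, from 72.5 ± 2.9 to 21.5 ± 0.99 CPM. The adipogenic regulator gene Pparg fell by 1.10 ± 0.121 and its target Fabp4 by 1.54 ± 0.269 on the log2 scale. The 2 members that rose were the lipase inhibitor gene Angptl4 (0.94 ± 0.165) and Ppard (0.13, adjusted p = 0.0422), which missed the threshold without 96 h culture 7 (0.318) or 240 h culture 5 (0.137). Adipocyte markers, summed, were at 84.6 to 96.2 CPM at 96 h and 54.8 to 62.8 CPM at 240 h, with Cidec at 0 reads, and 5 of the 7 tested fell. Their part in the lipid result was not tested.

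Signalling genes moved both ways. Of 47 Notch, Wnt and hedgehog genes, 21 rose (44.7%) and 15 fell (31.9%), against 19.8% and 19.1% of all genes (median 0.16). Jag1, a Notch ligand, was at 43.5, 54.8 and 51.5 CPM at 96 h and at 141, 174 and 152 CPM at 240 h (1.63 ± 0.108), and the receptor gene Notch3 went from 36.9 ± 6.2 to 84.5 ± 3 CPM. Heyl, Hey2 and Hey1, direct transcriptional targets of Notch, rose too. Heyl was at 0.186, 0.651 and 0.697 CPM at 96 h and at 4.45, 6.94 and 7.43 CPM at 240 h, the highest log2 fold change of the list (3.38 ± 0.265, adjusted p = 2e-09). Hey2 rose by 2.03 ± 0.236 and Hey1 by 1.27 ± 0.219, both from levels near 1 CPM. The value for Heyl was 5.03 and that for Hey2 2.78 when 96 h cultures 6 and 7 were left out together. The CSL site searched as TGGGAA stood in 3 of 31 promoters of the list (9.68%) and in 20.4% of all.

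Among Wnt genes, the ligand gene Wnt9a rose from 9.77 ± 1.6 to 24 ± 2 CPM and Lef1, the nuclear partner of beta-catenin, rose by 1.35 ± 0.337 from 0.367 ± 0.16 CPM (2.40 with culture 5 as the only 96 h library). The R-spondins, secreted enhancers of Wnt receptors, fell: Rspo2 was at 34, 37.4 and 39.1 CPM at 96 h and at 15.9, 11.4 and 13.2 CPM at 240 h (-1.47 ± 0.0877). Rspo1 fell by 1.56 ± 0.38 and Rspo3 by 0.91 ± 0.188 on the log2 scale. The secreted Wnt antagonist gene Sfrp2 fell by 1.41 ± 0.127. Of the hedgehog feedback targets, Hhip, the hedgehog-binding decoy, was at 8.63, 5.72 and 6.09 CPM at 96 h and at 1.93, 1.56 and 1.44 CPM at 240 h (-2.01 ± 0.2). The receptor gene Ptch1 went from 13.4 ± 1.2 to 9.39 ± 0.56 CPM.

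Among 24 TGF-beta and BMP targets tested, 11 rose (45.8%) and 5 fell (20.8%), with a median of 0.29. The shares over all genes were 19.8% and 19.1%, so the share that fell was near that of all genes. Ccn2, the connective tissue growth factor, was at 682, 620 and 674 CPM at 96 h and at 1290, 1710 and 1600 CPM at 240 h (1.22 ± 0.119). The ligand genes Tgfb3 (1.13 ± 0.0775) and Tgfb2 (0.99 ± 0.151) rose, and Nrep, a neuronal regeneration-related protein, went from 21.6 ± 2.3 to 59.3 ± 4.3 CPM. The 5 that fell include 4 genes induced by BMP. The inhibitor of differentiation Id2 went from 58.3 ± 5.4 to 26.2 ± 3.6 CPM and Id1 from 68.9 ± 6.9 to 41.7 ± 1.4 CPM. Smad6, an inhibitory Smad, fell by 0.61 ± 0.133, and Id3 (-0.17, adjusted p = 0.0346) missed the threshold with any 1 of the 6 libraries left out (0.0556 to 0.11). Tgfbi fell by 0.80 ± 0.0857 on the log2 scale. Of 24 YAP and TEAD targets 13 rose and 1, the forkhead gene Foxf2 (-1.34 ± 0.255), fell (median 0.13). Without culture 7 of all 4 groups 8 YAP and TEAD targets rose, and with culture 5 as the only 96 h library 5 did. Without culture 5 of all 4 groups, 3 TGF-beta and BMP targets fell.

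Imprinted genes fell more often than they rose, 14 against 3 of 30 (median -0.23). Igf2, the fetal growth factor, was at 972, 1450 and 1180 CPM at 96 h and at 415, 339 and 357 CPM at 240 h (-1.70 ± 0.204, adjusted p = 0.000217). H19, the non-coding RNA expressed from the other allele of the same domain, was at 1850, 2390 and 2040 CPM at 96 h and at 824, 619 and 670 CPM at 240 h (-1.57 ± 0.164). Cdkn1c, described above, lies in the neighbouring imprinted domain. Magel2, from the Prader-Willi region, was at 3.06, 2.1 and 3.2 CPM at 96 h and at 0.482, 0.445 and 0.594 CPM at 240 h (-2.49 ± 0.298). Those that rose were Gnas (0.19 ± 0.042), Igf2r, the receptor that clears IGF2 (0.26 ± 0.0359), and Sgce (0.30 ± 0.0557). In the insulin-like growth factor axis 6 of 23 rose and 10 fell, or 6 fell without 96 h culture 7 and 5 with culture 5 as the only 96 h library. The 6 that rose and the 10 that fell were 26.1% and 43.5% of the axis, against 19.8% and 19.1% of all genes. Igfbp7, a secreted IGF-binding protein, went from 507 ± 32 to 1140 ± 88 CPM. Pappa, the protease that frees IGF from its binding proteins, went from 71 ± 6.4 to 181 ± 21 CPM. Igf1 was at 10.2, 8.83 and 11.5 CPM at 96 h and at 16.7, 9.47 and 11.2 CPM at 240 h, which overlapped (0.24 ± 0.241, adjusted p = 0.485).

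Transcription factor genes of body patterning moved both ways. Of 33 Hox genes, which record position along the body axis, 7 rose (21.2%) and 9 fell (27.3%), against 19.8% and 19.1% of all genes. Without culture 7 of all 4 groups 3 rose, as with culture 5 as the only 96 h library, and without 240 h culture 7 6 fell. The 7 members of the HoxA cluster from Hoxa2 to Hoxa7 and Hoxa9 made most of those that fell, with log2 fold changes of -0.52 to -1.31. Hoxa5 was at 25.7, 31.4 and 30.7 CPM at 96 h and at 13.5, 12 and 12.8 CPM at 240 h (-1.22 ± 0.0879, adjusted p = 4.18e-10), and Hoxa4 missed the threshold without 96 h culture 7 (0.206) or 240 h culture 7 (0.057). Among those that rose, Hoxd8 went from 14.8 ± 1.4 to 22.3 ± 1.5 CPM. Of 62 other developmental transcription factors, 25 fell and 6 rose (median -0.23), or 12 fell and 2 rose with culture 5 as the only 96 h library. The homeobox gene Alx1 was at 4.92, 5.86 and 6.29 CPM at 96 h and at 1.5, 1.07 and 1.49 CPM at 240 h (-2.12 ± 0.165). Sox6 fell by 1.61 ± 0.317, or by 0.68 when 96 h cultures 6 and 7 were left out together (adjusted p = 0.394). Pax3, a neural crest and muscle progenitor factor, rose from 2.59 ± 0.28 to 5.7 ± 0.39 CPM.

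Interferon-stimulated genes fell more often than they rose, 11 against 3 of 35 tested, with a median of -0.38, and most sat at low levels. The number that fell was 6 without culture 7 of all 4 groups and 4 with culture 5 as the only 96 h library. Gbp2, an interferon-induced GTPase, was at 7.98, 7.67 and 6.33 CPM at 96 h and at 3.91, 2.62 and 3.22 CPM at 240 h (-1.13 ± 0.141, adjusted p = 1.49e-06). Gbp3, its neighbour and relative, was at 1.58, 1.09 and 1.33 CPM at 96 h and at 0.75, 0.311 and 0.297 CPM at 240 h. Ifi203 was at 2.14, 2.03 and 1.7 CPM at 96 h and at 1.29, 0.4 and 0.396 CPM at 240 h, and its log2 fold change of -1.47 ± 0.337 was -2.20 without 240 h culture 5. Gbp and Ifi200 genes have close relatives, so reads may be split among them. The 3 that rose were Ifi35 (0.25), Ifi27 (0.31) and Isg20 (0.51). Ifi35 missed the threshold with any 1 of the 6 libraries left out (adjusted p = 0.0538 to 0.1), Ifi27 without culture 5 or 7 of either time (0.079 to 0.126) and Isg20 without 96 h culture 7 (0.104) or 240 h culture 6 (0.0695). The promoters of Gbp2 and Gbp3 are printed as members with the interferon-stimulated response element, searched on both strands as GAAA, any 2 bases and GAAA, and in capitals. In Gbp3 it is 2 overlapping matches.
Gbp2 (chr3:142620413-142620662, plus strand): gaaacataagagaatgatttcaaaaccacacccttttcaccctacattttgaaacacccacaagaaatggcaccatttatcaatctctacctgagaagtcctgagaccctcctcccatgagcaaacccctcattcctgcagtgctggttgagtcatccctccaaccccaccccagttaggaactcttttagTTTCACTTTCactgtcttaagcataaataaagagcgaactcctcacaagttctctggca
Gbp3 (chr3:142559794-142560043, plus strand): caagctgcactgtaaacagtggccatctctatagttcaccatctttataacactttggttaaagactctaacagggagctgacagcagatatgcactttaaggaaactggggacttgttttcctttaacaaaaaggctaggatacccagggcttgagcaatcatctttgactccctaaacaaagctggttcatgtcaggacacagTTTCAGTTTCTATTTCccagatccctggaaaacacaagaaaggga
The element stood in 11 of 25 promoters of the list (44%) and in 2.42% of all.

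Of 41 secreted factors linked to senescent cells, 17 were higher (41.5%) and 8 lower (19.5%), against 19.8% and 19.1% of all genes. The lower share was thus near that of all genes. The median was 0.22, and 5 were lower without culture 6 of all 4 groups. With culture 5 as the only 96 h library, 11 were higher and 5 lower. Chemokines and interleukin-6 were among those that fell. Cxcl12, the stromal chemokine, was at 476, 610 and 572 CPM at 96 h and at 259, 215 and 224 CPM at 240 h (-1.25 ± 0.123). Cxcl5, a neutrophil chemokine, was at 46.8, 57.4 and 28.4 CPM at 96 h and at 17.5, 10.9 and 7.58 CPM at 240 h, and Il6 went from 4.22 ± 0.63 to 2.03 ± 0.28 CPM. Inhba, the activin A subunit, rose from 94.6 ± 6.7 to 212 ± 26 CPM. Of 28 antigen presentation and complement genes 10 fell and 2 rose, or 3 fell with culture 5 as the only 96 h library. The class I gene H2-K1 fell from 39.1 ± 1.3 to 26.6 ± 1.5 CPM, while the non-classical class I gene H2-T23 rose from 11 ± 1.4 to 25.1 ± 0.3 CPM and the C1 inhibitor gene Serping1 by 0.43 ± 0.0794.

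Genes of Polycomb and heterochromatin fell more often than they rose, 21 against 2 of 38 (median -0.27). Lmnb1, the B-type lamin of the nuclear envelope, was at 100, 103 and 108 CPM at 96 h and at 64.8, 68.1 and 73.6 CPM at 240 h (-0.60 ± 0.082, adjusted p = 9.1e-05). Lbr, the lamin B receptor, went from 92.9 ± 0.67 to 55.2 ± 3.4 CPM, Phf19 from 12.2 ± 0.91 to 6.45 ± 1.6 CPM and the chromatin protein gene Hmgb2 from 16.1 ± 0.33 to 10.3 ± 0.11 CPM. Ezh2, the methyltransferase of Polycomb complex 2, fell by 0.35 ± 0.0646 and Cbx7, a Polycomb reader, by 0.98 ± 0.214. Lmna, the A-type lamin (0.22 ± 0.0344), and Eed, a partner of Ezh2 (0.35 ± 0.0541), rose. Kat6a and Kat6b, which encode MYST acetyltransferases, did not pass the test. Kat6a was at 90.1, 95.9 and 93.7 CPM at 96 h and at 94.8, 88.8 and 95 CPM at 240 h (-0.01 ± 0.0391, adjusted p = 0.896), and Kat6b at 49.4 ± 1.3 and 48.4 ± 1.1 CPM (adjusted p = 0.602). Of the 14 MYST acetyltransferases and partners, 28.6% were called, against 38.9% of all genes tested. Jade1 (0.27) and Brpf3 (0.14) rose, and Jade2 (-0.42) and Kat5 (-0.16) fell. Brpf3 was short of the threshold without culture 6 of either time, 96 h culture 7 or 240 h culture 5 (adjusted p = 0.0506 to 0.338). Kat5 missed it without any 1 library other than 240 h culture 5 (0.0656 to 0.162).

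Other lists had medians between -0.14 and 0.10. Of 43 subunits of oxidative phosphorylation, 6 rose (14%) and 2 fell (4.65%), with a median of -0.01. Over all genes tested, 19.8% rose and 19.1% fell. Of 57 cytosolic ribosomal proteins, 16 rose (28.1%) and 1 fell (1.75%), with a median of 0.07. Of 38 genes of ribosome biogenesis, 12 rose (31.6%) and 1 fell (2.63%), with a median of 0.08. These 2 counts of higher genes were 6 without 240 h culture 7 and 4 without culture 7 of all 4 groups, and 4 and 2 with culture 5 as the only 96 h library. In the lysosome list 23 of 47 rose and 4 fell (0.07), or 15 rose without culture 7 of all 4 groups and 9 with culture 5 as the only 96 h library. Glycolysis and low-oxygen genes had 4 higher and 12 lower of 36 (-0.08), stress-response genes (integrated stress and unfolded protein) 18 and 6 of 37 (0.09; 11 higher without culture 7 of all 4 groups and 3 lower without culture 5 of all 4 groups), and NRF2 and aryl hydrocarbon receptor targets 2 and 12 of 26 (-0.12). Immediate early genes had 9 higher (25.7%) and 7 lower (20%) of 35 (0.05). PDGF and FGF signalling had 9 (27.3%) and 8 (24.2%) of 33 (0.10), against 19.8% and 19.1% of all genes. Quiescence-linked genes had 3 higher (13.6%) and 9 lower (40.9%) of 22 (-0.14). With culture 5 as the only 96 h library, 6 glycolysis and 4 quiescence-linked genes were lower, and 3 immediate early genes higher.

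Summed markers of other cell types lay below those of fibroblasts and moved in several directions. Macrophage markers summed to 11.5 to 12.8 CPM at 96 h and 8.76 to 11 CPM at 240 h, with 5 of 18 tested. Endothelial markers summed to 93.8 to 109 CPM at 96 h and 140 to 168 CPM at 240 h, yet of 8 tested 4 fell and 2 rose, with a median of -0.69. The receptor gene Flt1 made most of the rise in the sum (39.4 ± 3.8 to 87.5 ± 14 CPM). The endothelial cadherin gene Cdh5 fell (-2.68) on 50 reads at 96 h and 6 at 240 h, and had a test in 9 of 18 alternatives. Cldn5 had 0 reads, and Pecam1 had 10 reads at 96 h and 3 at 240 h. Without 96 h culture 7, 1 of the endothelial markers fell. Epithelial and mesothelial markers summed to 42.6 to 73 CPM at 96 h and 20.1 to 25.2 CPM at 240 h, and 4 of 7 tested fell. Among them Msln, mesothelin, was at 22.9, 19.4 and 14.4 CPM at 96 h and at 3.91, 2.49 and 2.33 CPM at 240 h. Skeletal muscle markers summed to 143 to 155 CPM at 96 h and 267 to 350 CPM at 240 h, with Myf6, Pax7 and Ckm at 0 reads. Acta1 made most of that rise (119 ± 7.3 to 267 ± 46 CPM). Of 8 muscle markers tested, 2 rose (25%) and 1 fell (12.5%), with a median of -0.1. Neural and glial markers summed to 97.9 to 116 CPM and 132 to 149 CPM, with Rbfox3 at 0 reads. Of 10 tested, 2 (Map2 and Stmn2) rose and 2 fell (20% each), with a median of -0.2. Cartilage and bone markers summed to 438 to 599 CPM and 368 to 514 CPM. The part of these other cell types in the changes above was not tested.

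The 15 genes with the highest log2 fold change at a mean of at least 1 log2 CPM were Misp3, Sema5b, Col15a1, Ntn3, Nppb, Cyp4b1, Cxcr6, Fndc1, Ramp1, Col10a1, Galnt16, Susd2, Itga8, Stag3 and Cacna1g. The semaphorin gene Sema5b was at 3.62, 2.89 and 2.97 CPM at 96 h and at 23.9, 16.3 and 20.9 CPM at 240 h (2.72 ± 0.249). Nppb, the B-type natriuretic peptide, was at 0.65, 0.796 and 1.39 CPM at 96 h and at 6.06, 6.98 and 6.73 CPM at 240 h, and its log2 fold change of 2.53 was 3.16 without 96 h culture 7. Ramp1, a part of the receptor for the vasodilator CGRP, rose from 1.29 ± 0.12 to 6.44 ± 0.51 CPM and Cacna1g, a T-type calcium channel, from 23.6 ± 2.8 to 103 ± 7.4 CPM. Fndc1 went from 10.1 ± 3.5 to 53.8 ± 14 CPM (2.34, or 3.14 with culture 5 as the only 96 h library). Susd2 went from 7.38 ± 1.4 to 37.3 ± 5.2 CPM, Cxcr6 from 1.09 ± 0.12 to 5.46 ± 1 CPM, Galnt16 from 2 ± 0.24 to 9.64 ± 1.3 CPM, Cyp4b1 from 0.852 ± 0.23 to 4.32 ± 1 CPM and Col10a1, the collagen of hypertrophic cartilage, from 4.52 ± 2.2 to 19.8 ± 7.7 CPM.

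The 15 lowest were Arhgap36, Kng2, Enpep, Msln, Igf2os, Itih2, Alx1, Hhip, Sim2, Itga3, Gcnt1, Cbr2, Nell2, Cxcl5 and Hid1. Arhgap36, an X-linked positive regulator of hedgehog signalling, was at 24.9, 29.7 and 36.8 CPM at 96 h and at 2.63, 3.11 and 3.17 CPM at 240 h, a log2 fold change of -3.39 ± 0.221 (adjusted p = 5.32e-07). Enpep, glutamyl aminopeptidase, went from 5.65 ± 0.39 to 0.831 ± 0.25 CPM and Itga3, an integrin subunit that binds laminin, from 45.9 ± 2.3 to 11.9 ± 0.67 CPM. Kng2, a kininogen, fell from 5.51 ± 1.7 to 0.687 ± 0.056 CPM and Itih2, a hyaluronan-linked inhibitor chain, from 9.34 ± 1.3 to 1.99 ± 0.24 CPM. The transcription factor gene Sim2 went from 18.5 ± 3.2 to 4.76 ± 1.1 CPM, Gcnt1 from 8.84 ± 0.89 to 2.32 ± 0.26 CPM, Cbr2 from 11.4 ± 3.4 to 3.06 ± 0.58 CPM, Nell2 from 4.68 ± 1.1 to 1.33 ± 0.64 CPM and Hid1 from 9.67 ± 1.7 to 2.83 ± 0.34 CPM. Igf2os overlaps Igf2 on the opposite strand, and since the strand setting of the counting is not given in the sources used here, its fall (-2.22) cannot be told apart from that of Igf2.

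Whether the change over time differed under the inhibitor was tested as an interaction. It set the change in the 6 WM-8014 libraries against that in the same 6 WM-2474 libraries as above. It was called for 1510 of 14136 genes (10.7%), 728 with a more positive change and 782 with a more negative change under WM-8014. Of 1058 genes called both over time under WM-2474 and in the interaction, 767 moved further in the same direction under WM-8014. The mitotic list differed most evenly: 65 of 70 members were called, all with a more negative change under WM-8014, with medians of -0.56 under WM-2474 and -1.33 under WM-8014. In the S phase list 37 of 58 were called, all more negative (-0.32 and -0.80). In the contractile list 14 of 33 had a more positive and 1 a more negative change (0.49 and 0.82). In the cholesterol list 2 of 28 were called, 1 each way, and the medians were -0.88 and -0.96.

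By the smallest p, the interaction genes were Slc38a4, Tmpo, Mki67, Cenpf, Idh2, Bub1b, Pdlim5 and Plk1. Mki67 fell by 0.63 under WM-2474 and by 1.76 under WM-8014, a difference of -1.13 ± 0.0775 (adjusted p = 2.06e-07). The imprinted amino acid transporter gene Slc38a4 fell by 0.68 and by 1.77 (difference -1.09 ± 0.0733), and Idh2, the mitochondrial isocitrate dehydrogenase, by 0.49 and by 1.13. Tmpo, a lamina-associated protein, fell by 0.58 and 1.41, Cenpf, a kinetochore protein, by 0.69 and 1.66, the checkpoint kinase gene Bub1b by 0.51 and 1.51, and the mitotic kinase gene Plk1 by 0.44 and 1.33. Pdlim5, a stress fibre adaptor, rose by 0.47 under WM-2474 and by 1.01 under WM-8014. Cdkn2a rose by 0.87 and 1.43 and Cdkn1a by 0.81 and 1.07. Other differences ran the opposite way. Col15a1 and Nell2 were named as extremes under WM-2474. The same WM-2474 libraries enter the interaction, which by itself favours such a difference for genes chosen that way. Col15a1 rose by 2.61 under WM-2474 and by 0.70 under WM-8014 (difference -1.90 ± 0.166, adjusted p = 2.26e-06), and the secreted protein gene Nell2 changed by -1.87 and by -0.15 (difference 1.72 ± 0.388, adjusted p = 0.00611). For Scd1 the difference was 0.01 ± 0.0663 (adjusted p = 0.933).

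**Figure D4:**
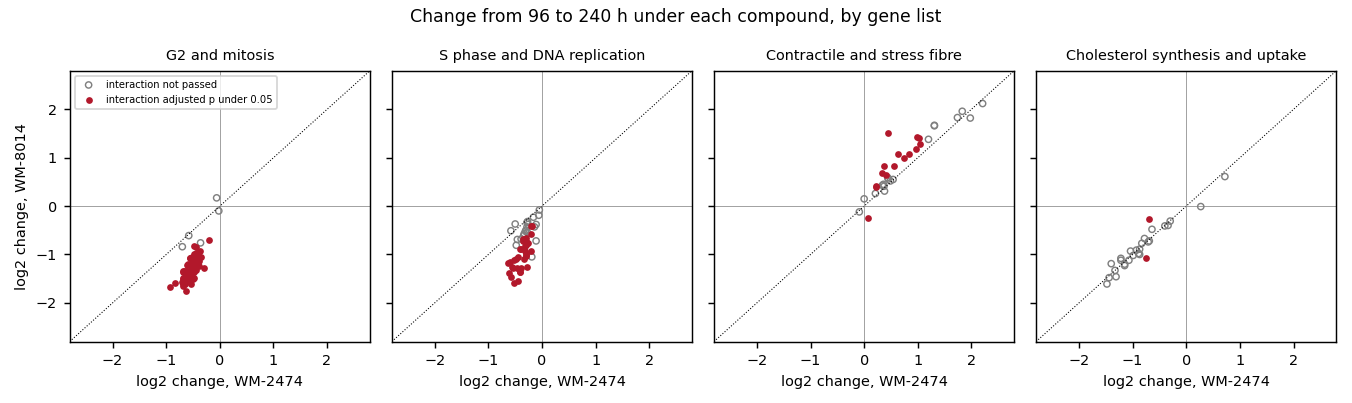
Log2 fold change from 96 h to 240 h under WM-2474 (x axes) and under WM-8014 (y axes) for members of 4 gene lists, 1 point per gene, filled where the interaction had an adjusted p under 0.05; the dotted line marks equal change. In the mitotic list 65 of 70 points are filled, all below the line, while cholesterol members lie along it, with 2 of 28 filled.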

How the data were processed

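RNA was extracted with RNeasy columns and made into TruSeq stranded poly(A) libraries, per the labels' protocols. The authors deposited raw counts per gene, and per the submitters' processing notes these came from featureCounts with mm10 as the genome. The sources used here do not give the aligner, annotation or strand setting. Gene identifiers were matched to RefSeq symbols (25275 of 27179, 93%). Groups came from the labels, and the series design gives the cultures as biological replicates. Counts of the 12 libraries were filtered with filterByExpr (14136 genes), scaled by TMM and fitted with 4 group means in edgeR 4.0.16 (R 4.3.3, limma 3.58.1) by the quasi-likelihood test, with Benjamini-Hochberg adjustment over all genes tested. The interaction was a contrast of the same fit. CPM used TMM-adjusted totals, and the standard error was the log2 fold change divided by the square root of F. Replicate libraries differed beyond counting noise (chi-square per degree of freedom 2.1 to 7.13). The fit was tested on simulated counts. Alternatives were DESeq2 1.42.0, other scaling and filters, thinning, a block on culture number and left-out libraries.

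The gene lists, motifs and named genes were chosen with earlier results of these data known. Named genes were a fixed set, the 15 highest and 15 lowest called genes with a mean of at least 1 log2 CPM, up to 4 called members of each list with the smallest p, and the 8 interaction genes with the smallest p. Other list members are named where a count of 5 or fewer, or a contrast within a list, called for it after their values were seen.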

Additional observations from a re-analysis of the deposited data

Results flagged for a closer look

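For the genes named here, the change from 96 h to 240 h differed between the compounds by the interaction test (edgeR's quasi-likelihood test, adjusted p under 0.05). Each value is the log2 fold change over time under WM-8014 minus that under WM-2474. Genes of replication, mitosis and the nuclear envelope or chromatin changed more negatively under WM-8014, as did the inhibitor genes Cdkn1b and Cdkn2c: Mki67 (-1.13), Bub1b (-1), Cenpf (-0.97), Plk1 (-0.89), Tmpo (-0.83), Ccnb1 (-0.83), Cdk1 (-0.51), Pimreg (-0.75), Ckap2 (-0.57), Lig1 (-0.55), Mcm5 (-0.88), Pcna (-0.34), H2ax (-0.28), Cdkn1b (-0.45), Cdkn2c (-1.06), Lmnb1 (-0.98), Hmgb2 (-1.03) and Ezh2 (-0.57). Other genes with a negative difference were Col15a1 (-1.90), Col18a1 (-1.44), Fbln1 (-0.82), Hoxd8 (-0.80), Idh2 (-0.64), Igf2r (-0.42), Matn2 (-0.49), Sfrp2 (-0.82), Slc38a4 (-1.09) and Susd2 (-0.85). Of these, Col15a1, Col18a1, Susd2, Hoxd8 and Igf2r rose under WM-2474. Contractile and matrix-linked genes with a positive difference were Acta2 (0.24), Tagln (0.22), Ccn2 (0.75), Pdlim5 (0.54) and Timp3 (0.65), and genes for inhibitors of cyclin-dependent kinases and p53 targets were Cdkn1a (0.26), Cdkn2a (0.55), Cdkn2b (0.56), Mdm2 (0.53) and Perp (0.93). A positive difference was also found for Adamts1 (0.38), Adamts5 (0.51), Alx1 (1.04), Gcnt1 (0.80), Id1 (0.67), Nell2 (1.72), Pparg (0.86) and Smoc2 (0.39), all of which fell under WM-2474. Col15a1, Susd2, Alx1, Gcnt1 and Nell2 had been named as extremes under WM-2474. The same WM-2474 libraries enter the interaction, which by itself favours a difference of the opposite sign for such genes.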

How the results depend on the processing

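Counts moved most with the libraries used, and fewer libraries also give less power to call a gene. With culture 5 as the only 96 h library of WM-2474, 1454 genes were higher, 1256 lower, and 240 and 346 had a positive and a negative interaction. In that setting 38 of 185 named genes lost their call, among them H3c2, H3c4, Cdkn1c, Cdkn2d, Cdkn2c, Sesn1, Abcc9, Abcg1, Angptl4, Hey1, Ptch1, Smad6, Gnas, Hoxa6, Sox6, Cxcl5, Ezh2, Cbx7, Cxcr6, Col10a1 and Jade1. Without a replicate, higher genes numbered 1995 to 2794, lower genes 1821 to 2469, positive interactions 315 to 629 and negative ones 409 to 789. Without culture 5, 6 or 7 of all groups the positive interactions were 352, 315 and 415, and the negative ones without 6 or 7 were 409 and 452. DESeq2's Wald test gave 2362 higher and 2196 lower, and thinning to the smallest total 2405 and 2099. With culture number as a replicate block, 2954 genes were higher and 2857 lower over 12 libraries, and 2849 and 2624 over 6, where Cdkn1c was not called. Same-numbered WM-2474 cultures correlated at 0.029, 0.102 and 0.074 (other pairs -0.084 to 0.006). Under WM-8014 the values were 0.064, 0.19 and 0.082 (other pairs -0.116 to 0.034). Under both compounds each library correlated best with its own number. The reported fit did not pair the cultures, and whether same-numbered cultures share an origin was not tested. Of 5497 called genes, 2597 to 5468 were still called in the same direction, and 0 in the opposite one, under every alternative run. The following small uncalled differences changed sign. Igf1 ran from -0.01 to 0.41 with 1 library left out and was -0.02 without culture 5 of all groups. With libraries left out, Kat6a ran from -0.03 to 0.04 (0.01, 0.02 and 0.04 where reversed), Bub3 from -0.05 to 0.03 (0.03, 0.02 and 0.00) and Zyx from -0.03 to 0.06 (0.00, 0.01, 0.04 and 0.06). The causes were not tested. In simulated data, 65% of genes changed 1.3-fold and 90% of those changed 2-fold were called. There only 200 of 14136 genes were changed, fewer than the 5497 called here, and the spread was set by abundance alone. These shares therefore need not hold for this comparison, but small differences can be missed.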
